A study of Rattus norvegicus with 35 samples.

Results

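Hemorrhage followed by resuscitation, abbreviated H/R, was examined in rat livers with secondary biliary cirrhosis that had received no simvastatin. The samples were chosen by their treatment group label alone, and they make up 11 of the 35 liver samples in the series. The common bile duct had been ligated and partly resected under midazolam and ketamine in all 11 rats, vitamin K was injected weekly, and the livers were studied 4 weeks after the operation. The ligated sham group (n = 5) had a sham procedure, and the ligated H/R group (n = 6) lost blood and was resuscitated. All 11 therefore carry the ligation and the vitamin K, and by treatment label the groups differ in H/R. The final 2 digits of the sample titles, whose meaning is not stated, are also unevenly spread between them. The endings 12 and 05 occurred only in H/R and 04 only in sham, so H/R was not the only difference. Control rats without ligation, sham (n = 5) or H/R (n = 6), and ligated rats given simvastatin, sham (n = 5) or H/R (n = 8), are used only to set the size of the same contrast beside that of the untreated ligated livers. The simvastatin dose was 5 mg per kg by daily gavage, beginning 3 days before the experiment and ending 1 h before it. The labels used here give no strain, sex, age, bled volume or time from resuscitation to sampling, and do not say whether rats without simvastatin had a vehicle gavage.

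Total RNA labelled with biotin was hybridised to single-colour Affymetrix arrays, 1 array per sample. Levels are given as the deposited log2 signals, and a difference of 1 between levels is a change of 2-fold. Arrays are numbered in sample order within a group, and the number is only a name. The brightest probe set with a single symbol stood for each of 13438 genes. Differences were tested with limma across all 35 arrays, ± after a difference is its standard error, and a gene passed when its Benjamini-Hochberg adjusted p over all genes was under 0.05. The labels name a group and a number per sample and say nothing of separate experiments, so each p rests on the spread among the samples alone, which may be partly technical.

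Hemorrhagic shock starves the liver of blood and oxygen, and resuscitation returns both. Such an insult is known to unfold proteins, and cells answer through heat shock factor 1, which switches on chaperones that refold or hold damaged proteins. Macrophages and endothelial cells answer tissue injury through NF-kappa-B, which switches on interleukin 1, other cytokines and the chemokines that draw neutrophils. In biliary cirrhosis these responses take place in a liver already filled with proliferating bile ducts and scar.

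The ligated labels were borne out by marker genes. Krt19, a keratin of the biliary epithelium, read 9.31 to 10.76 on the 11 ligated arrays and 3.98 to 6.21 on the 11 control arrays, and Epcam, Krt7, Spp1, Col1a1 and Col3a1 did not overlap between the same arrays either. The control arrays share no title ending (the final 2 digits that each title carries) with these 11 arrays, so ending and ligation cannot be told apart in levels set across them. Alb, the main secreted protein of hepatocytes, read 13.65 to 13.74 on the ligated arrays. Correlations between the 11 ligated arrays ran from 0.963 to 0.987. Of 10 array control measures, the spiked-in BioB probe sets had the smallest p between the groups. They read 7.84 ± 0.07 (SD, n = 5) in sham and 8.07 ± 0.14 (SD, n = 6) in H/R, with p = 0.013 in an exact two-sided permutation test and 0.087 after adjustment over the 10 measures. Their part in the results was not tested.

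After H/R, ligated livers had higher levels of 3 chaperones, of interleukin 1 beta and of a few genes of other kinds, while very few genes fell. Among genes past the threshold the largest rises were in Hspb1 (5.67-fold), Il1b (4.86-fold), Penk (4.07-fold) and Hsph1 (2.88-fold), and the largest fall was in Celf5 (at least 2.12-fold). In all, 18 of 13438 genes passed (0.134%). Of these, 16 rose (0.119%) and 2 fell (0.0149%), and 9 changed at least 2-fold. On 12 of the 16 that rose every H/R array was above every sham array, which held for 0.744% of all genes, and on both that fell every H/R array was below, which held for 0.446%. The median difference over all genes was -0.02. An unadjusted p under 0.05 was found for 1401 genes (10.4%), those past the threshold included, and these divided nearly evenly into 679 higher (5.05%) and 722 lower (5.37%).

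The number past the threshold depended strongly on single arrays. It was 6, 4, 45 and 7 without ligated sham arrays 1, 2, 3 and 4, and 2, 11 and 28 without ligated H/R arrays 1, 4 and 6. Fitting only these 2 groups left 3 genes. The title endings, whose meaning is not stated, differ between arrays of each ligated group. With the ending as a fixed block 4 genes passed, 1 of them among the 18, and as a random block 3. Within the ending 03 (1 sham and 2 H/R arrays) Hspb1 differed by 2.87, Il1b by 1.43 and Penk by 2.06, and within the ending 06 (3 sham and 1 H/R arrays) by 2.72, 3.27 and 2.02. Other genes past the threshold differed little within 03, Trmt61a by 0.13, Nop58 by 0.19, Dusp11 by 0.24 and Pira2 by 0.45. Il1a and Cxcl1, which did not pass, differed there by -0.07 and 0.40. The 16 genes past the threshold that are named below all kept their sign within both endings. These are descriptions, since the genes were chosen for their difference on the same arrays. Of the 18 genes, RGD1305537 (0.71 ± 0.15) is an uncharacterised locus, and C3h11orf91 (0.83 ± 0.17) was not above the brightest nonspecific probe in either group, so neither is described further.

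**Figure D1:**
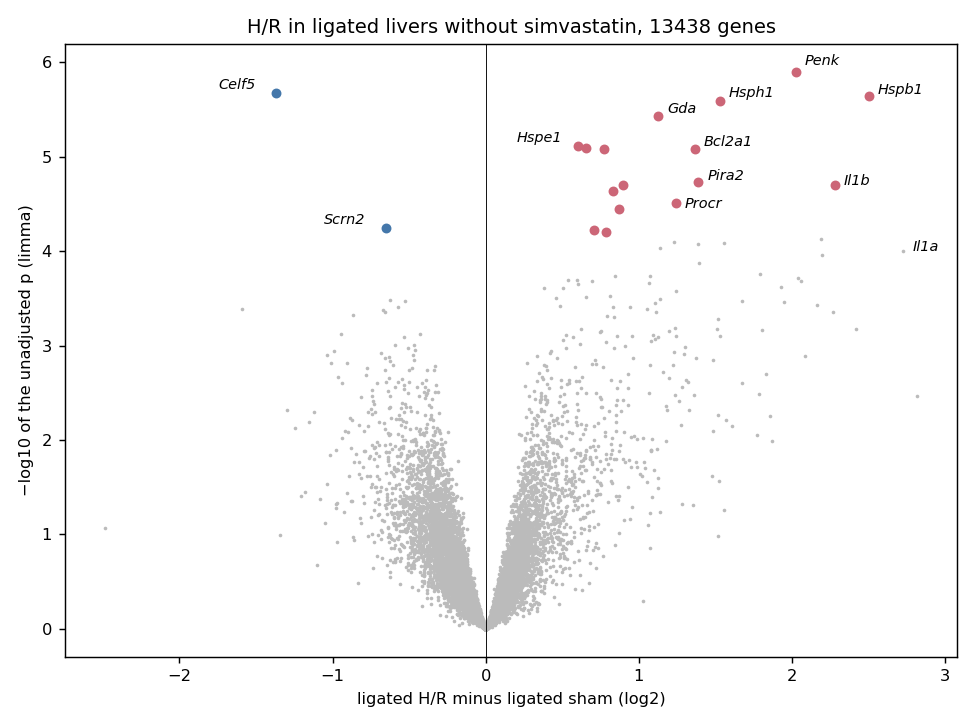
Each point is 1 of 13438 genes, with the ligated H/R minus ligated sham difference in log2 on the horizontal axis and −log10 of the unadjusted limma p on the vertical axis. Red points (16) rose and blue points (2) fell at an adjusted p under 0.05, and grey points, the labelled Il1a among them, did not pass.

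The gene lists used here and below were chosen with earlier results of these data known. Their shares and medians beside those of all genes are therefore descriptions, not tests. Chaperones were the group with the most genes past the threshold. Of 17 measured heat shock chaperones and co-chaperones, 3 rose and 0 fell, 11 had an unadjusted p under 0.05 on the higher side (64.7%, against 5.05% of all genes) and 0 on the lower, and 16 had a difference above 0. The list's median difference was 0.45, against -0.02 over all genes. Every H/R array was above every sham array for 7 of the 17 (41.2%, against 0.744% of all genes), namely Hspb1, Hspa1a, Hsph1, Dnajb1, Bag3, Hspe1 and Hspd1.

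Hspb1 encodes a small heat shock protein that holds unfolding proteins and steadies actin filaments. It read 7.34, 7.47, 6.57, 7.75 and 7.68 on the sham arrays, and 8.84, 9.89 and 10.91 at the lowest, median and highest H/R array. The groups did not overlap, and the lowest H/R array was about 1 log2 unit above the highest sham array. Hspb1 rose by 2.50 ± 0.44 (95% confidence interval 1.61 to 3.40, adjusted p = 0.0086). Hsph1, a large chaperone that releases nucleotide from HSP70, read 7.86, 7.44, 8.05, 7.67 and 8.16 in sham and 8.53, 9.43 and 9.99 in H/R. It rose by 1.53 ± 0.27 (adjusted p = 0.0086), and a second, dimmer probe set for Hsph1 differed by 1.61. Hspe1, the mitochondrial co-chaperonin that caps the HSP60 chamber, read 11.21, 11.29, 11.35, 11.37 and 11.53 in sham and 11.75, 11.95 and 12.22 in H/R. This was a small but clean separation, a rise of 0.60 ± 0.11 (adjusted p = 0.0125). Without H/R array 1 the adjusted p of all 3 was 0.0503. The calls of Hsph1 and Hspe1 were also lost without sham array 2, and that of Hspe1 without sham array 1, with adjusted p up to 0.0586 for Hsph1 and 0.0817 for Hspe1.

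Other chaperones had large differences that did not pass. Hspa1a, the inducible HSP70 that shares nearly its whole sequence with a neighbouring copy and so cannot be told from it with certainty, read 7.88, 8.46, 7.44, 8.92 and 8.33 in sham and 9.22, 10.50 and 11.42 in H/R. The groups did not overlap and the difference was 2.20 ± 0.50 (adjusted p = 0.0585). Dnajb1, an HSP40 partner of HSP70, differed by 0.87 ± 0.33, Bag3, which couples HSP70 to autophagy, by 0.67 ± 0.31, and Hspd1, the HSP60 chamber itself, by 0.40 ± 0.12. Hspa8, the constitutive HSP70, differed by 0.11 ± 0.15 and Cryab, a small heat shock protein, by -0.38 ± 0.47. On single arrays the mean level of the list ran from 8.50 to 8.69 in sham and from 8.99 to 9.56 in H/R, with no overlap.

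Heat shock factor 1 binds inverted repeats of the letters GAA. The stretches before the start of the 3 chaperone genes that rose are shown with 1 form of such repeats, GAANNTTC, marked. The other order, TTCNNGAA, was not searched, and unmarked copies of it stand in the Hsph1 and Hspe1 stretches. The sequences are the 250 bases before the annotated start, from RefSeq on the rat build GRCr8, printed 5′ to 3′ on the gene's strand, and capitals mark GAANNTTC, which reads the same on both strands.
Hspb1 (chr12:26432302-26432551, minus strand): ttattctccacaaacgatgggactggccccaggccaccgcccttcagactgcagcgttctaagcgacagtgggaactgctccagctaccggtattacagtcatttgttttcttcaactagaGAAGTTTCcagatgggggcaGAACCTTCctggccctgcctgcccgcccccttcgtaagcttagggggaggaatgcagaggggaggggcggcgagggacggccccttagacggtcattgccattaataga
Hsph1 (chr12:10427118-10427367, plus strand): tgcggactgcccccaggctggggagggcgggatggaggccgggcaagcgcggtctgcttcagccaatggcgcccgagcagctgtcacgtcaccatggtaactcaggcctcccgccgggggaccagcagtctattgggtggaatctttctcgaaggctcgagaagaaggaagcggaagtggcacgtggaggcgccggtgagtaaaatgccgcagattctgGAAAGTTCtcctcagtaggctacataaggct
Hspe1 (chr9:64084077-64084326, plus strand): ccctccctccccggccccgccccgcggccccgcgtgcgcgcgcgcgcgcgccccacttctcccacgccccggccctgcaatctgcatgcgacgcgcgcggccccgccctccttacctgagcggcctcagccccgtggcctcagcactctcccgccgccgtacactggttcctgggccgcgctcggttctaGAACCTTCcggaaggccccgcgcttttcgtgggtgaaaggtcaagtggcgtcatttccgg

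Hspb1 held 2 matches to GAANNTTC, and Hsph1 and Hspe1 held 1 each. The letters GAANNTTC stood in 9 of the 16 chaperone promoters found in the table (56.2%), in 7.02% of all 27457 promoters of the same length and in 4.82% of the 11089 that belong to genes tested on the arrays. The longer form GAANNTTCNNGAA, which contains the shorter one and was searched on both strands, stood in 4 of the 16 (25.0%), Hspa8, Hspd1, Hspe1 and Hsph1. It stood in 0.597% of all promoters and in 0.37% of those of genes tested on the arrays. Hspa8 held it with a difference of 0.11, so the letters did not mark the chaperones with large differences only. Hspa1a, whose difference was larger than that of Hsph1 or Hspe1 but did not pass, held 0 matches to GAANNTTC in its 250 bases. A match is a description of the letters, not a binding site.

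Cytokines, chemokines and adhesion molecules formed the list with the largest median difference, 1.36, against -0.02 over all genes. Of 29 measured members 1 rose and 0 fell. The differences of all 29 were above 0, 20 had an unadjusted p under 0.05 on the higher side (69.0%, against 5.05% of all genes) and 0 on the lower. Another 8 members lay between an adjusted p of 0.05 and 0.10, a looser limit chosen after the values were seen, under which 60 genes passed in all. The mean level of the list ran from 5.45 to 6.88 on the sham arrays and from 7.15 to 8.10 on the H/R arrays, with no overlap.

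Il1b encodes interleukin 1 beta, a fever-inducing cytokine made mainly by macrophages and neutrophils. It read 6.62, 7.89, 9.04, 8.47 and 9.88 in sham and 10.31, 10.54 and 11.40 at the lowest, median and highest H/R array. The sham arrays were spread over more than 3 log2 units, the H/R arrays over about 1, and they did not overlap. Il1b rose by 2.28 ± 0.46 (95% confidence interval 1.35 to 3.22, adjusted p = 0.0226). The call was lost without sham array 1, 2 or 4 or H/R array 1, 2 or 3 (adjusted p up to 0.175), and the rise remained between 1.84 and 2.66 over all single-array omissions.

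Ccl7, a chemokine that draws monocytes, had the smallest p of those that did not pass. It read 2.96, 4.31, 5.65, 5.53 and 5.67 in sham and 6.17, 6.98 and 7.94 in H/R, a difference of 2.19 ± 0.49 (adjusted p = 0.0508) with no overlap. Il1a, the interleukin 1 form held inside cells until they are damaged, read 3.19, 3.51, 7.74, 4.28 and 7.21 in sham and 7.29, 7.98 and 8.24 in H/R. Its difference was the largest of the list at 2.73 ± 0.62 (adjusted p = 0.0556), yet sham array 3 overlapped the H/R arrays. A second, dimmer probe set for Il1a differed by only 1.31. Cxcl1, a neutrophil chemokine, read 7.61, 9.79, 11.33, 10.89 and 11.38 in sham and 11.35, 12.16 and 12.29 in H/R (1.79 ± 0.42, adjusted p = 0.0812). For Il1b and these 3 genes sham arrays 1 and 2 were the lowest and sham arrays 3 and 5 the highest. Of the remaining members, Il6 differed by 2.42 ± 0.64, Ptgs2, the inducible prostaglandin synthase, by 2.27 ± 0.58, Ccl2 by 2.16 ± 0.55, Cxcl2 by 2.04 ± 0.49, Il1r2, the decoy receptor for interleukin 1, by 1.93 ± 0.47 and Tnf by 1.83 ± 0.55. Members with small differences included the adhesion molecule Vcam1 (0.25 ± 0.26), Il33 (0.31 ± 0.20) and the interferon-induced chemokine Cxcl11 (0.55 ± 0.49).

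The 250 bases before Cxcl1 and Cxcl2 are shown because each held the NF-kappa-B type letters GGGNNTTTCC at 2 places, which capitals mark in whichever strand they were found. They are printed as above, and were picked for their matches.
Cxcl1 (chr14:17479322-17479571, minus strand): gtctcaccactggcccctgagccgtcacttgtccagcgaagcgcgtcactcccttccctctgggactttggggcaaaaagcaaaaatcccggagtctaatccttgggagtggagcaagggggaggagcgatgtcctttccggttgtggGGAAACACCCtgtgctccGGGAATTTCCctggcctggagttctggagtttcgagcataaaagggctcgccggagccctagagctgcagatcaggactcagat
Cxcl2 (chr14:17467256-17467505, minus strand): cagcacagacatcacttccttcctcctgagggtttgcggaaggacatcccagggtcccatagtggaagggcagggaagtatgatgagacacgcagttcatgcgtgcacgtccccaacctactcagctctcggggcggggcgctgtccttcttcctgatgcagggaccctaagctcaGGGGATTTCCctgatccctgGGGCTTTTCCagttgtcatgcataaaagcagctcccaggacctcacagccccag

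These letters stood in 7 of 20 promoters of the list found in the table (35%), those of Cxcl1, Cxcl2, Cxcl6, Ccl20, Il6, Il1rn and Nfkbia. They stood in 1.28% of all promoters and in 1.54% of those of genes tested on the arrays. Of the 14 promoters found for genes that rose, 0 held these letters. Il1b did not hold them in this window. The TATA letters TATAAA, searched on both strands, stood in 9 of the 20 (45.0%), Il1b, Il1a, Tnf and Ccl7 among them. TATAAA stood in 0 of the 16 chaperone promoters, in 13.1% of all promoters and in 8.04% of those of genes tested on the arrays. GAANNTTC stood in 1 of the 20, Ptgs2.

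Neutrophil markers were higher on the same H/R arrays apart from array 5. All 9 measured markers had a difference above 0, as 46.4% of all genes did, 6 of them had an unadjusted p under 0.05 on the higher side (66.7%, against 5.05% of all genes), and 0 passed. The median difference was 0.73, and it ran from 0.50 to 1.77 over the alternatives. S100a8, a calcium-binding protein abundant in neutrophils, read 6.49, 6.20, 6.92, 6.37 and 6.10 in sham and 6.33, 8.38 and 10.29 in H/R (1.86 ± 0.63, adjusted p = 0.274). S100a9, its partner, differed by 1.77 ± 0.64 and Lcn2, a granule and acute phase protein also made by hepatocytes, by 1.23 ± 0.39. Csf3r, the receptor for granulocyte colony-stimulating factor, was not above the brightest nonspecific probe in sham, so its H/R level was at least 1.93-fold higher (adjusted p = 0.269). Cxcr2, Mmp8, Mmp9, Camp and Padi4 were above the brightest nonspecific probe in neither group. The mean level of the 9 ran from 4.45 to 4.76 in sham and from 4.55 to 6.55 in H/R. H/R array 5, at 4.55, lay within the sham range, and its Il1b, at 10.31, lay above every sham array. In bulk liver, more cells of a type and more RNA per cell cannot be told apart.

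Macrophage markers overlapped between the groups. Of 12 measured Kupffer cell and macrophage markers 0 passed, 11 had a difference above 0, and the median was 0.22. On the higher side 1 had an unadjusted p under 0.05 (8.33%, against 5.05% of all genes). It was Cd163, a scavenger receptor for hemoglobin (0.85 ± 0.40). Their mean level ran from 7.84 to 8.39 in sham and from 7.88 to 8.84 in H/R, with overlap. Of 14 lymphocyte markers 11 were above the nonspecific probes in neither group, and the 4 red cell markers likewise. The part of neutrophil and macrophage content in the cytokine differences was not tested.

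**Figure D2:**
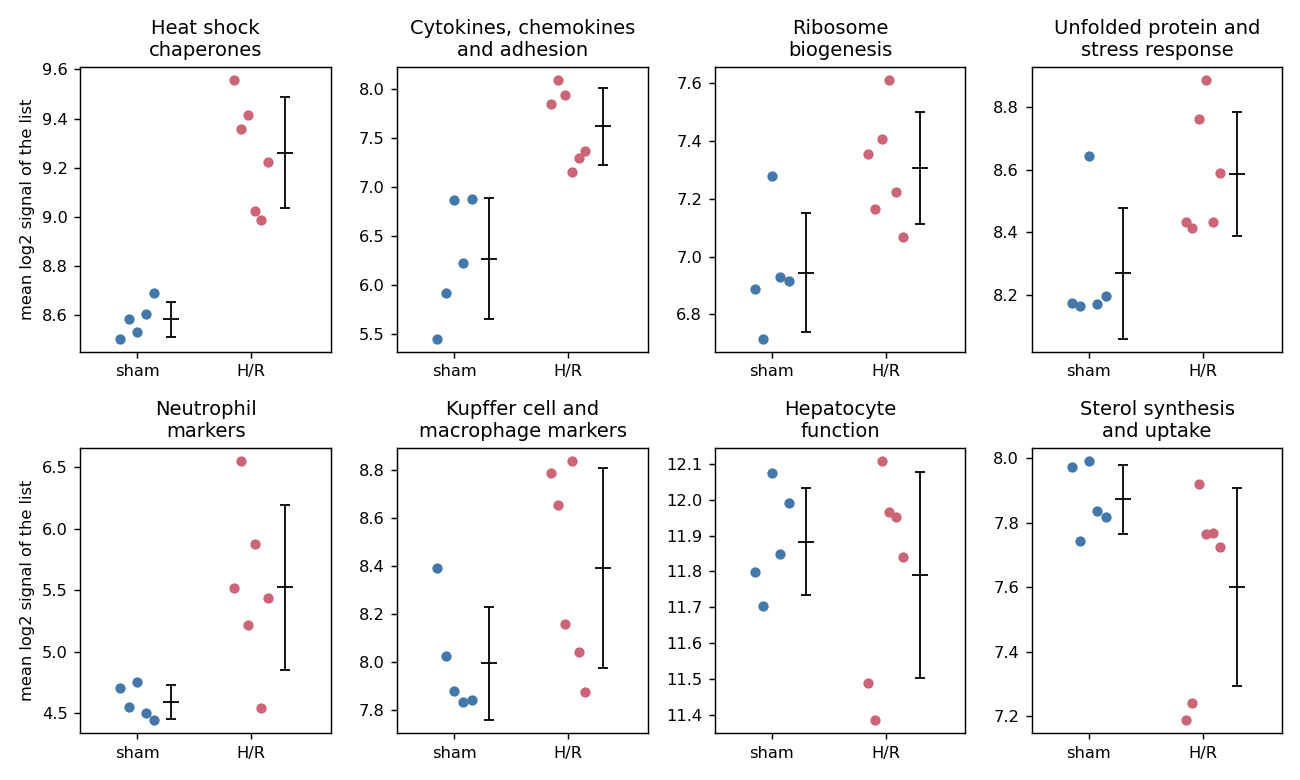
Each point is 1 array, and its height is the mean log2 signal of a gene list on that array, for ligated sham (blue, n = 5) and ligated H/R (red, n = 6). The black mark is the group mean and the bars its SD. The heat shock and cytokine panels show no overlap, H/R array 5 lies among the sham arrays in the neutrophil panel (4.55), and sham array 3 stands apart in the unfolded protein panel (8.64).

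The other named genes that rose came from several classes. Penk encodes proenkephalin, the precursor of opioid peptides, which is also made by fibroblasts and stellate cells. It read 5.42, 5.09, 5.10, 5.22 and 6.17 in sham and 6.75, 7.42 and 7.96 in H/R. The separation was complete, and the rise of 2.02 ± 0.34 (adjusted p = 0.0086) had the smallest p of all genes and stayed past the threshold in each of 11 single-array omissions. The 22 markers of stellate cells, myofibroblasts and matrix had 0 genes past the threshold and a median of 0.08, and their mean level overlapped between the groups (7.48 to 8.16 in sham, 7.52 to 8.21 in H/R).

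Bcl2a1, a BCL2 relative that protects leukocytes and activated endothelium from apoptosis, read 6.43, 6.91, 7.21, 6.91 and 7.68 in sham and 7.89, 8.20 and 9.28 in H/R. It rose by 1.36 ± 0.26 (adjusted p = 0.0125). Procr, the endothelial receptor for protein C, read 7.38, 6.84, 6.14, 7.20 and 7.55 in sham and 7.58, 8.37 and 8.62 in H/R, so that the lowest H/R array nearly touched the highest sham array. It rose by 1.24 ± 0.26 (adjusted p = 0.0298). Of 12 endothelial markers 0 passed, and their median was 0.10. The call of Bcl2a1 was lost without sham array 1, 2 or 4 or H/R array 1 (adjusted p up to 0.0953), and that of Procr without sham array 1, 2, 3 or 4 or H/R array 1, 2 or 4 (up to 0.117).

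Gda, guanine deaminase of purine breakdown, read 8.57, 8.39, 8.84, 8.93 and 8.55 in sham and 9.07, 9.92 and 10.24 in H/R, and rose by 1.13 ± 0.20 (adjusted p = 0.0101). Pcsk5, a convertase that cuts proproteins in the secretory pathway, read 6.04, 5.29, 6.11, 5.97 and 6.29 in sham and 6.56, 6.83 and 7.02 in H/R, and rose by 0.87 ± 0.18 (adjusted p = 0.0322). Neither overlapped between the groups, and 2 further, dimmer probe sets for Pcsk5 differed by 0.63 and 0.35. The call of Gda was lost without sham array 2 or H/R array 1 (adjusted p up to 0.0652), and that of Pcsk5 without sham array 1, 2 or 4 or H/R array 1, 3, 4 or 6 (up to 0.191).

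Pira2 belongs to a family of paired immunoglobulin-like receptors of myeloid cells whose members have very similar sequences, so its signal may include its relatives. It read 4.66, 3.73, 5.06, 4.27 and 3.18 in sham and 5.10, 5.50 and 6.08 in H/R, just clear of each other, and rose by 1.39 ± 0.28 (adjusted p = 0.0226). Its other probe sets disagreed, with differences of -0.54 and 0.03, and both were dimmer. The call was lost without sham array 2, 4 or 5 or H/R array 1, 2 or 4 (adjusted p up to 0.117).

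Dnajb9, a chaperone partner in the endoplasmic reticulum and a target of the unfolded protein response, read 8.57, 8.58, 9.19, 8.96 and 8.58 in sham and 9.32, 9.70 and 10.00 in H/R. It rose by 0.90 ± 0.18 (adjusted p = 0.0226) with no overlap. It was the 1 gene past the threshold among 21 of the unfolded protein and integrated stress response, 0 fell, 6 had an unadjusted p under 0.05 on the higher side (28.6%, against 5.05% of all genes), and the median was 0.33. Hspa5, the central chaperone of that compartment, differed by 0.33 ± 0.11, Manf by 0.41 ± 0.14 and Creld2 by 0.68 ± 0.27. The list's mean level on sham array 3 was 8.64, inside the H/R range of 8.41 to 8.89, while the other sham arrays were below it. The call of Dnajb9 was lost without sham array 1, 2, 4 or 5 or H/R array 1, 3 or 4 (adjusted p up to 0.118).

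Nop58, a core protein of the small nucleolar particles that methylate ribosomal RNA, read 8.55, 8.55, 9.21, 8.77 and 8.54 in sham and 9.16, 9.37 and 9.57 in H/R. Only sham array 3 overlapped the H/R arrays, and Nop58 rose by 0.66 ± 0.12 (adjusted p = 0.0125). Among 19 genes of ribosome biogenesis it was the 1 past the threshold. Of the 19, 0 fell, 12 had an unadjusted p under 0.05 on the higher side (63.2%, against 5.05% of all genes), 18 had a difference above 0 and the median was 0.33. Ppan, a processing factor of the large subunit, differed by 0.49 ± 0.12 (adjusted p = 0.0984) and Fbl, the methyltransferase of the same particle, by 0.47 ± 0.13, and with Ncl these were the 3 whose H/R arrays were all above the sham arrays (15.8%, against 0.744% of all genes). Ddx21, a nucleolar helicase, differed by 0.62 ± 0.17. The call of Nop58 was lost without sham array 1 or 2 or H/R array 1 (adjusted p up to 0.0817), and its second probe set, dim in both groups, differed by 0.13.

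A pair of other RNA-processing genes rose. Dusp11, a phosphatase that trims triphosphates from RNA ends, read 7.08, 6.98, 7.72, 6.88 and 7.35 in sham and 7.70, 8.00 and 8.23 in H/R, and rose by 0.78 ± 0.15 (adjusted p = 0.0125). Trmt61a, which methylates adenosine in transfer RNA, read 5.02, 4.81, 5.92, 5.08 and 5.05 in sham and 5.61, 5.93 and 6.42 in H/R, and rose by 0.78 ± 0.17 (adjusted p = 0.0469). For both, sham array 3 alone overlapped the H/R arrays. The call of Dusp11 was lost without sham array 1, 2 or 4 or H/R array 1 (adjusted p up to 0.0817), and that of Trmt61a without any 1 of 8 arrays, sham 1, 2, 4 and 5 and H/R 1, 3, 4 and 5 (up to 0.208).

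Both genes that fell did so at low signal. Celf5, an RNA-binding regulator of splicing, read 5.10, 4.99, 5.14, 5.26 and 5.29 in sham and 2.96, 3.89 and 4.19 in H/R. The H/R mean of 3.79 was not above that group's brightest nonspecific probe (4.00), so its fall is given as at least 2.12-fold (fitted log2 difference -1.37 ± 0.24, adjusted p = 0.0086), and it passed in each single-array omission. Scrn2, a secernin, read 5.34, 5.02, 5.24, 5.30 and 5.22 in sham and 4.23, 4.52 and 5.02 in H/R, and fell by 0.65 on the log2 scale (SE 0.14, adjusted p = 0.0469). Its groups touched without crossing, and its call held in 1 of 11 omissions, that of H/R array 6 (adjusted p up to 0.181 in the others).

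Genes with the next smallest p on the lower side did not pass. Their adjusted p ran from 0.0975 to 0.155. Fgf13, an intracellular relative of the fibroblast growth factors, had the largest difference of them, -1.59 ± 0.41, with sham values of 7.24, 5.04, 7.37, 5.72 and 3.96 that overlapped the H/R arrays (3.71, 3.99 and 5.25). Id1, an inhibitor of helix-loop-helix factors that responds to bone morphogenetic proteins, differed by -0.87 ± 0.22, Slc2a9, a urate transporter, by -0.66 ± 0.17, and Myo1d, an unconventional myosin, by -0.63 ± 0.16. Slc2a9, Accs, C10h17orf58, Cdip1 and Fez2 had every H/R array below every sham array, which held for 0.446% of all genes. The remainder (Sema3d, Man2a1, Hacd4, Trappc9, Coq7, with Fgf13, Id1 and Myo1d) overlapped. All were picked for small p on the same arrays, which favours separation, so this is a description.

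**Figure D3:**
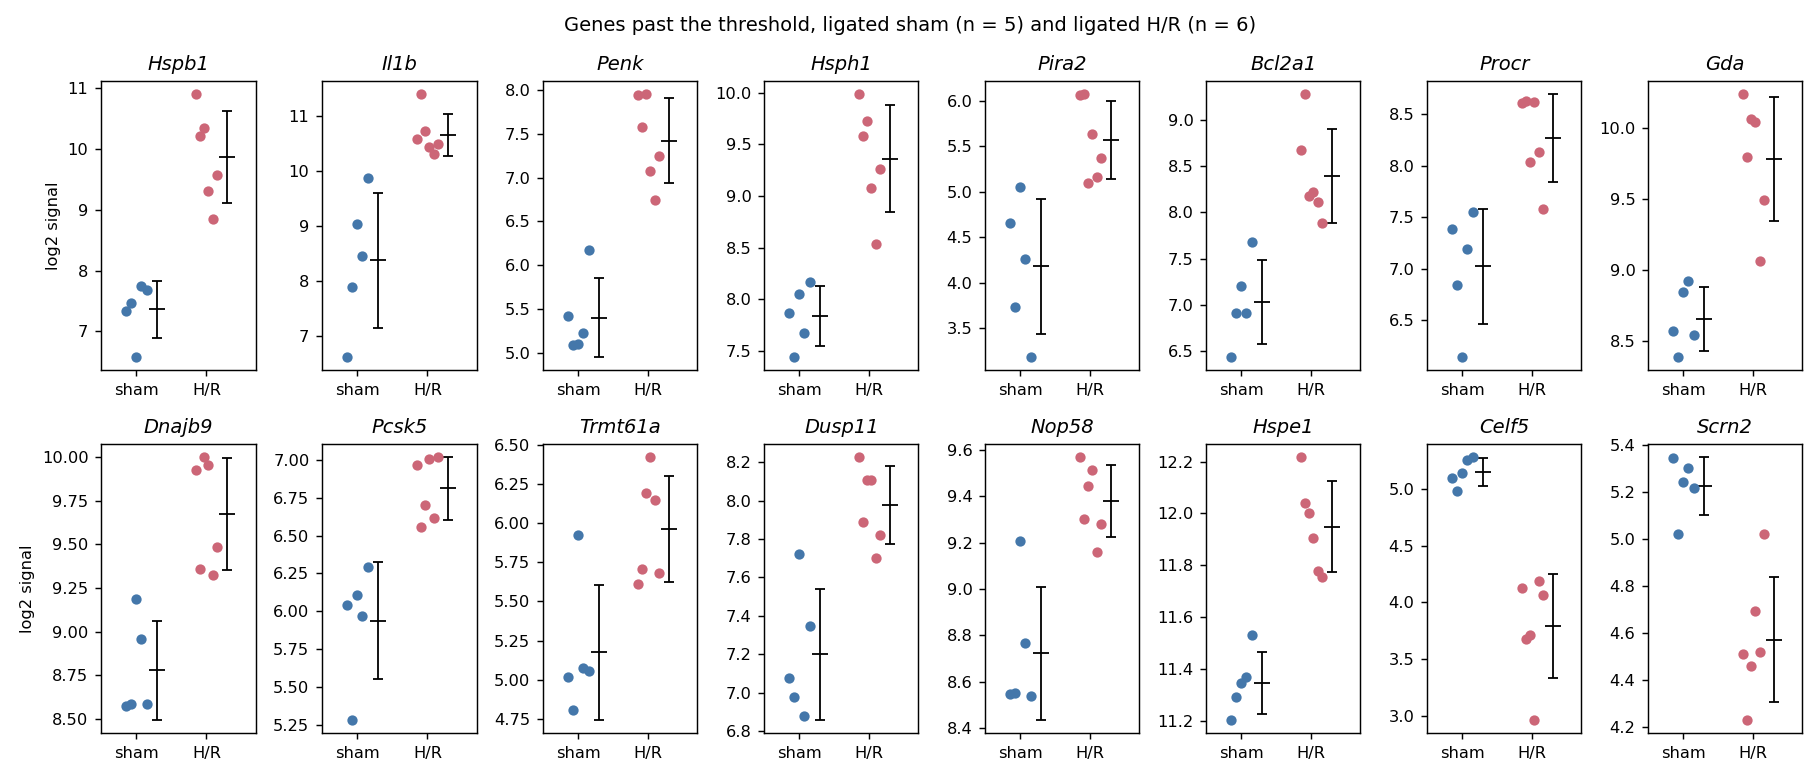
Each panel is 1 of the 16 named genes past the threshold, each point is 1 array, and the vertical axis is the log2 signal, on a scale of its own in each panel. The black mark is the group mean with its SD, for ligated sham (blue, n = 5) and ligated H/R (red, n = 6). Overlap is seen only for Trmt61a, Dusp11 and Nop58, where sham array 3 is the high point.

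The lists of hypoxia, immediate early and acute phase genes had medians above 0 and 0 genes past the threshold. Of 22 hypoxia response genes 10 had an unadjusted p under 0.05 on the higher side (45.5%, against 5.05% of all genes) and 0 on the lower, and the median was 0.37. Hmox1, heme oxygenase 1, read 8.92, 8.65, 9.32, 10.24 and 9.71 in sham and 10.10, 10.41 and 10.88 in H/R (1.07 ± 0.31, adjusted p = 0.176), and Adm, the vasodilator peptide adrenomedullin, differed by 1.36 ± 0.43. Sham array 4 was the highest sham array for both. Of 25 immediate early genes 6 had an unadjusted p under 0.05 on the higher side (24%, against the same 5.05%) and 0 on the lower, with a median of 0.34, and Dusp2, a phosphatase of MAP kinases, differed by 1.20 ± 0.36.

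Of 20 acute phase genes 6 had an unadjusted p under 0.05 on the higher side (30%, against 5.05% of all genes) and 0 on the lower, and the median was 0.09. A2m, the alpha-2-macroglobulin that is a main acute phase protein of the rat, read 10.49, 10.07, 10.87, 11.05 and 10.82 in sham and 11.21, 11.89 and 12.57 in H/R. The groups did not overlap, and the difference of 1.23 ± 0.27 narrowly did not pass (adjusted p = 0.0508). Steap4, a metalloreductase, differed by 1.24 ± 0.33 and Fgb, the fibrinogen beta chain, by 0.30 ± 0.10. Mt2A, a metallothionein counted in the oxidative stress list, differed by 0.38 ± 0.09 (adjusted p = 0.0848) at levels of 12.08 to 12.64 in sham. The remaining response lists (interferon-stimulated genes, p53 targets, the serine and asparagine synthesis genes, oxidative stress, cell cycle and coagulation) had 0 genes past the threshold and medians between -0.19 and 0.10. Among them, 4 of 17 oxidative stress genes (23.5%) and 3 of 14 p53 targets (21.4%) had an unadjusted p under 0.05 on the higher side. In both lists 0 had one on the lower, and the other lists had smaller shares on the higher side.

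Medians were below 0 for 9 of the 11 lists of metabolism and housekeeping, ribosome biogenesis and the proteasome (0.04) being the others, and 10 of the 11 had 0 genes past the threshold. They were -0.16 for fatty acid oxidation, -0.14 for lipogenesis, -0.09 for the respiratory chain, -0.09 for the circadian clock, -0.07 for gluconeogenesis and -0.04 for drug metabolism. All 18 measured genes of sterol synthesis and uptake had a difference below 0, 6 of them with an unadjusted p under 0.05 (33.3%, against 5.37% of all genes), and the median was -0.15. Msmo1, a C4 sterol oxidase, differed by -0.53 ± 0.19, Dhcr7, which makes the last step to cholesterol, by -0.60 ± 0.24, and Mvk, mevalonate kinase, by -0.61 ± 0.23. Their mean level ran from 7.74 to 7.99 in sham and from 7.19 to 7.92 in H/R, and H/R arrays 1 and 2 were the low ones.

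Cyp7a1, which makes the first and limiting step from cholesterol to bile acids, read 11.40, 11.17, 10.80, 11.19 and 11.46 in sham and 8.69, 10.31 and 10.81 in H/R. The arrays barely overlapped, and the difference of -1.15 ± 0.40 did not pass (adjusted p = 0.288). The 24 bile acid genes had a median of -0.18 and the 21 genes of the urea cycle and amino acid catabolism one of -0.23, with 3 members each on the lower side at an unadjusted p under 0.05 (12.5% and 14.3%, against 5.37% of all genes). Cpt2, of mitochondrial fatty acid import, differed by -0.81 ± 0.26, G6pc1, which releases glucose, by -0.75 ± 0.33, and Nr1i2, the pregnane X receptor, by -0.74 ± 0.25. Cyp2c11, the main male-specific cytochrome P450, differed the other way (1.57 ± 0.54, adjusted p = 0.281), with sham arrays from 4.13 to 9.34.

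Markers of hepatocytes and bile ducts had 0 genes past the threshold. The 18 hepatocyte function genes had a median of -0.08. Of these, 1 had an unadjusted p under 0.05 on the lower side (5.56%, near the 5.37% of all genes). It was Arg1, the arginase of the urea cycle (-0.23 ± 0.11). The 18 cholangiocyte and ductular markers had a median of -0.12, with the epithelial factor Elf3 at 0.76 ± 0.25. Mean levels of both lists overlapped between the groups (hepatocyte 11.70 to 12.07 in sham and 11.39 to 12.11 in H/R, ductular 8.09 to 9.05 and 8.37 to 9.01).

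**Figure D4:**
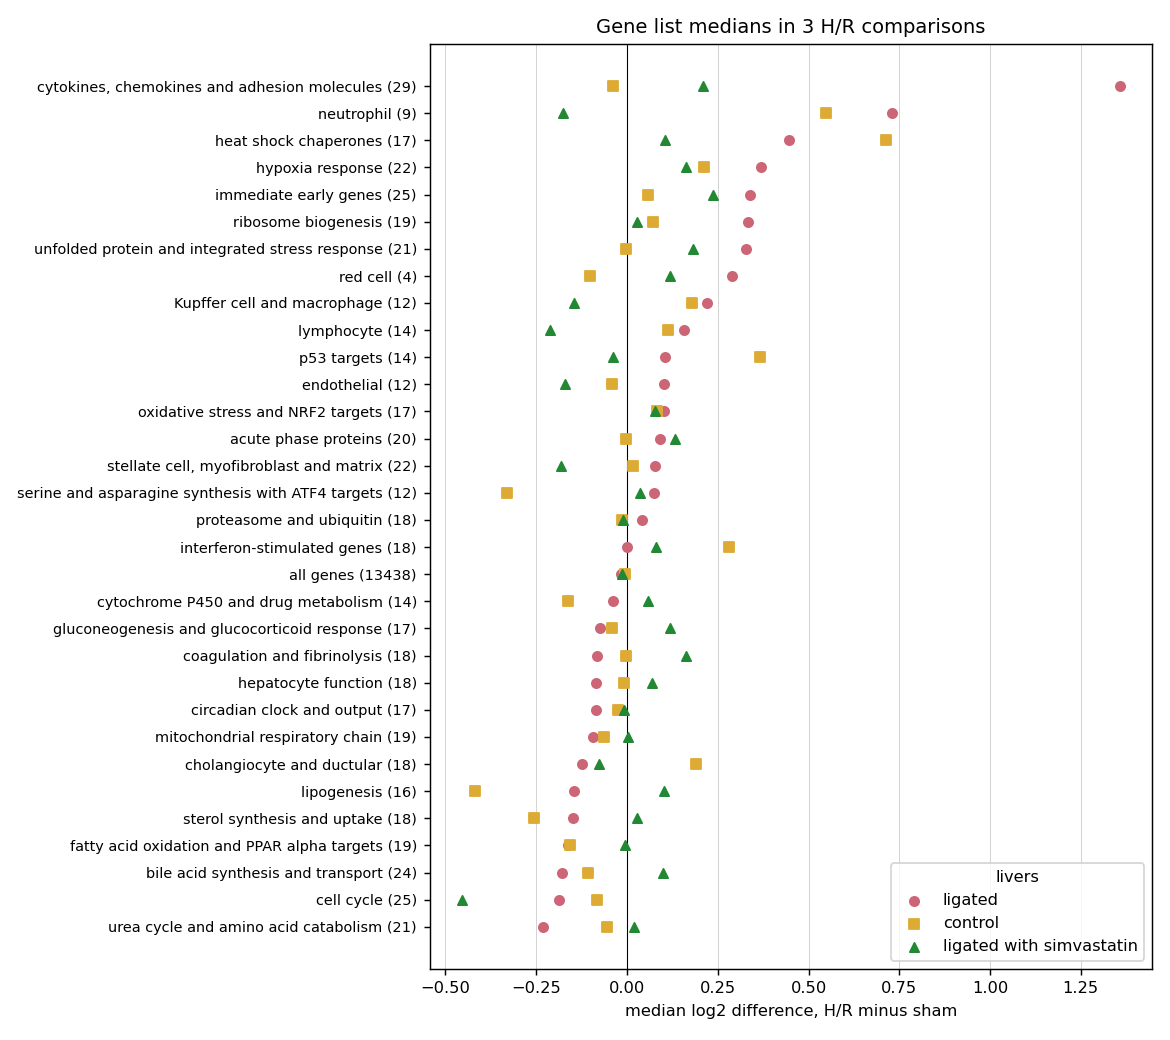
Each row is a gene list with its number of measured genes, ordered by the ligated value, and the horizontal axis is the median log2 difference of H/R minus sham. Red circles are ligated livers without simvastatin, yellow squares control livers and green triangles ligated livers with simvastatin. The cytokine list stands at 1.36 in ligated, -0.04 in control and 0.21 in simvastatin livers, and the heat shock list at 0.45, 0.71 and 0.10.

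The same contrast in control livers and in ligated livers with simvastatin shares no arrays with the untreated ligated livers. H/R in control livers moved 115 genes past the threshold (0.856%), 3 of which were among the 18 (Hspb1, Hsph1 and Hspe1). That count was 56 and 61 without control sham arrays 4 and 5, 190, 50, 173 and 51 without control H/R arrays 3, 4, 5 and 6, and 11 when only the control groups were fitted. H/R with simvastatin moved 0 genes past it in limma (0%), with 725 at an unadjusted p under 0.05 and 6 past the threshold with array weights. Of the 16 genes that rose, all 16 had a difference above 0 in control livers, where 48.8% of all genes did, and 13 had one with simvastatin, where 46.3% did. Penk and C3h11orf91 among them were not above the nonspecific probes in the control groups. Their median difference was 1.01 in untreated ligated livers, 0.34 in control livers and 0.11 with simvastatin. The genes had been picked as large in the first of these, so its lead over the other two is not a finding.

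Chaperones, Il1b and Penk are set side by side. Hspb1 differed by 4.30 ± 0.44 in control livers and by 1.14 ± 0.41 with simvastatin, and started from a mean of 6.01 in control sham and 7.36 in ligated sham. Hsph1 differed by 1.12 ± 0.27 in control livers and by 0.41 ± 0.25 with simvastatin. Hspe1 differed by 0.71 ± 0.11 in control livers and by 0.04 ± 0.11 with simvastatin. Il1b differed by 0.03 ± 0.46 in control livers and by -0.14 ± 0.43 with simvastatin, and its control sham mean of 9.91 lay above the ligated sham mean of 8.38. As these sham groups share no title ending, ending and group cannot be told apart in such levels. Penk differed by 0.65 ± 0.32 with simvastatin, and its effect in control livers is not given because it was not above the nonspecific probes there. The test of the difference in effects did not pass for any of these. Against control livers it gave -1.79 ± 0.62 for Hspb1 (adjusted p = 0.72), 0.41 ± 0.38 for Hsph1 (0.97) and 2.25 ± 0.65 for Il1b (0.61). Against simvastatin it gave 1.37 ± 0.60 for Hspb1 (0.96), 1.12 ± 0.37 for Hsph1 (0.72), 2.42 ± 0.63 for Il1b (0.53) and 1.37 ± 0.47 for Penk (0.73).

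**Figure D5:**
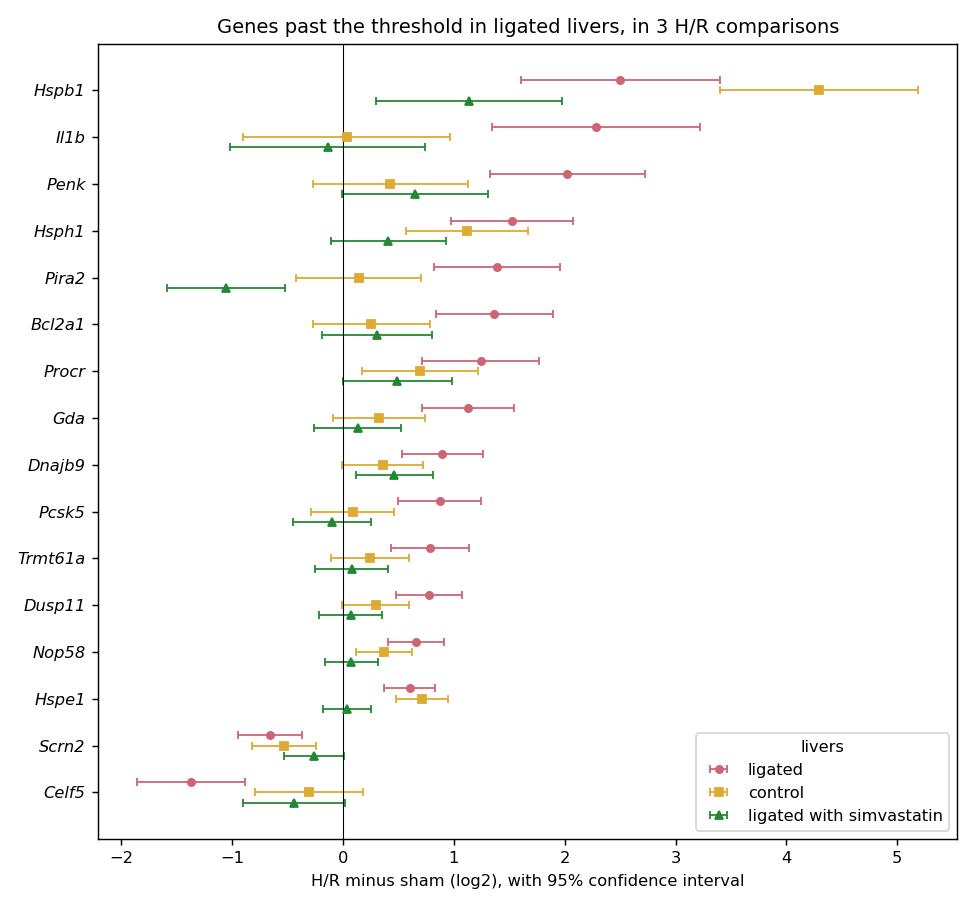
For each of the 16 named genes past the threshold in ligated livers, points give the H/R minus sham difference in log2 and bars its 95% confidence interval, for ligated livers without simvastatin (red circles), control livers (yellow squares) and ligated livers with simvastatin (green triangles). Hspb1 lies at 2.50, 4.30 and 1.14, and Il1b at 2.28, 0.03 and -0.14. Penk and Celf5 were not above the nonspecific probes in the control groups.

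The test of the difference between the H/R effects in ligated and in control livers passed for 1 gene (0.00744%), Clec4m, a C-type lectin of sinusoidal endothelium. Clec4m was above the brightest nonspecific probe in control H/R, at 5.25 ± 0.29 (SD, n = 6), and not in control sham, at 3.78 ± 0.29 (SD, n = 5), ligated sham (2.72) or ligated H/R (2.74). The fitted difference of -1.46 ± 0.24 (adjusted p = 0.013) is therefore not a measured difference of a pair of effects. A filter that kept genes above the 30th percentile of levels left Clec4m untested, and 0 genes passed there. The call was lost in a fit of these groups only, with 0 genes past the threshold. It was also lost without control sham array 1 and without ligated sham arrays 3 and 4, while the count was 5, 3, 5 and 2 without control sham array 3, control H/R arrays 2 and 3 and ligated H/R array 3. Dnaja4, an HSP40, differed by 0.70 ± 0.26 in ligated and 2.50 ± 0.26 in control livers (difference -1.80 ± 0.37, adjusted p = 0.11). Phgdh, the first enzyme of serine synthesis, differed by -0.42 ± 0.28 in ligated and -2.23 ± 0.28 in control livers (difference 1.81 ± 0.40, adjusted p = 0.13), and Me1, malic enzyme, by 0.15 ± 0.18 and -1.02 ± 0.18.

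The effect differed from that in simvastatin-treated ligated livers for 1 gene as well (0.00744%). Pira2 differed by 1.39 ± 0.28 without and by -1.06 ± 0.26 with simvastatin (difference 2.44 ± 0.38, adjusted p = 0.0038), again on the probe set that its other probe sets did not bear out. A second gene passed without ligated H/R array 5 and without simvastatin sham array 4. The next genes did not pass. Slpi, an inhibitor of leukocyte proteases, read 7.17, 6.19, 7.32, 7.59 and 8.20 in sham and 8.20, 9.20 and 10.68 in H/R, a difference of 2.06 ± 0.49 against -0.98 ± 0.47 with simvastatin (difference of effects 3.04 ± 0.68, adjusted p = 0.37). Dock9, an activator of CDC42, differed by -0.39 ± 0.12 and 0.47 ± 0.11 (difference -0.86 ± 0.16, adjusted p = 0.057), and Cd5l, a secreted macrophage protein, by 1.10 ± 0.45 and -1.50 ± 0.43 (difference 2.60 ± 0.62, adjusted p = 0.53). Clec4f, the Kupffer cell lectin, ran from 3.99 to 9.28 on the ligated sham arrays, and differed by 1.55 ± 0.78 and -2.05 ± 0.73.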

How the data were processed

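The members and gene lists were chosen with earlier results of these data known. The authors deposited log2 signals per probe set for 35 arrays, and the sources used here name no normalization. The range of the values set the scale as log2 (1.51 to 13.79, array medians 3.97 to 4.29). Of 31139 probe sets, 19063 had 1 symbol, 572 several and 11407 none in the annotation table used here, apart from 97 controls. Each of 13438 genes was represented by its brightest probe set with 1 symbol.

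One mean per group was fitted with lmFit and eBayes of limma 3.58.1 in R 4.3.3, with 29 residual degrees of freedom, after a check on simulated data. Background was taken as exceeded in a group when a gene's mean was above the mean of the brightest nonspecific probe set of that group's arrays. Otherwise its fold was computed against, on each array of that group, the higher of the gene's own value and that array's brightest nonspecific probe set. The text names the 15 largest rises and falls past an adjusted p of 0.05, filled up to 15 by smallest p, 5 genes in each direction of each difference of effects, and up to 4 members of each list by smallest p. Uncharacterised loci were left out. Members of lists outside this rule (Il6, Ptgs2, Ccl2, Cxcl2, Il1r2, Tnf, Vcam1, Il33, Cxcl11, Dnajb1, Bag3, Hspd1, Hspa8 and Cryab) were named after their values were seen, as were the genes named only by their promoters or by their background level. The 31 lists had 632 entries, of which 549 were measured.

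Alternatives were a fit of the compared groups only, trend and robust eBayes, array weights, a filter at the 30th percentile, renewed quantile normalization, median centring, other probe set choices, omission of each array and the title ending as a block. Array number limits precision.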

Additional observations from a re-analysis of the deposited data

Results flagged for a closer look

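Among 122 groups of gene or list values tested for a sample far from the others, 6 held one. Chance gives about 1 in 20 of independent groups. These groups share arrays and genes, so their number cannot be set against that rate. Ligated sham array 3 held 4 of them: Trmt61a at 5.92 and Id1 at 7.78, both high, the cholangiocyte and ductular list at 8.09, low, and the list of the unfolded protein response at 8.64, high. Ligated H/R array 1 was high for the red cell list at 4.23, and ligated H/R array 3 was low for the cell cycle list at 4.68.

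The H/R effect differed between groups by its own test for Clec4m, by a fitted -1.46 against control livers (above the nonspecific probes in control H/R only), and for Pira2, by 2.44 against ligated livers with simvastatin. When all 31042 probe sets other than controls were tested, 20 passed, and 4 of these had no single gene symbol. Of the 4, 3 were higher after H/R (2.40 ± 0.41, 1.62 ± 0.32 and 0.90 ± 0.17) and 1 was lower (-0.56 ± 0.11). A second probe set for Mmp9, a gelatinase counted in the neutrophil list, also passed there (0.75 ± 0.15, adjusted p = 0.042), while the probe set used for Mmp9 did not (0.62 ± 0.25). Neither was above the brightest nonspecific probe in either group (2.28 in sham and 3.03 in H/R for the former, 2.82 and 3.44 for the latter).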

How the results depend on the processing

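For ligated H/R against ligated sham the count of 18 genes became 3 in a fit of the 2 groups, 43 with array weights, 4 and 3 with the title ending as a fixed and a random block, 9 at 2-fold or more and 60 at an adjusted p under 0.10, and it ran from 2 to 45 with single arrays left out. The difference from control livers (1 gene) became 0 in a fit of its groups only and above the 30th percentile, 2 after quantile normalization and 2 with mean probe sets, and ran from 0 to 5 with arrays left out. The difference from simvastatin (1 gene) became 2 with trend and robust eBayes, above the 30th percentile, after quantile normalization and after centring, 3 with array weights, 0 with mean probe sets and 0 with the probe set of largest interquartile range, and ran from 1 to 2. Control H/R (115 genes) became 11 in a fit of its groups only and ran from 50 to 190, and simvastatin H/R (0 genes) became 6 with array weights and stayed at 0 with arrays left out. The cause of these shifts was not tested.

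Of the 16 named genes past the threshold 0 passed under all 21 alternatives, and 2 (Penk and Celf5) passed in every single-array omission. Of the 16, Pira2 reversed sign, at -0.54 on the probe set of largest interquartile range. Of 650 recomputed list medians 25 moved by more than the replicate spread. The cytokine median stayed between 1.07 and 1.67 and the heat shock median between 0.30 and 0.54, while the neutrophil median ran from 0.50 (without H/R array 2) to 1.77 (above the 30th percentile, with fewer genes tested), the ductular median ran from -0.32 to 0.30 and the acute phase median from -0.17 to 0.22. No paired analysis was possible because the labels give no number or animal shared between the groups, apart from the title endings used as a block.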

Other observations

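Ligated sham arrays share no title ending with the control or simvastatin sham arrays, so that ending and group cannot be told apart in these levels. The brightest nonspecific probe set also differed, with means of 4.51 in control sham, 3.64 in ligated sham and 3.26 in simvastatin sham. Mean levels of the cytokine, chemokine and adhesion list over all groups were 7.30 ± 0.55 (SD, n = 5) in control sham, 7.32 ± 0.51 (n = 6) in control H/R, 6.27 ± 0.62 (n = 5) in ligated sham, 7.62 ± 0.39 (n = 6) in ligated H/R, 6.53 ± 0.52 (n = 5) in simvastatin sham and 6.67 ± 0.61 (n = 8) in simvastatin H/R. By mean, ligated sham was the lowest of the 6 groups, and ligated H/R reached the range of the control arrays, whose sham values ran from 6.87 to 8.21. Interleukin 1 beta itself followed the same order at its ends, with means of 8.38 in ligated sham, 9.91 in control sham and 10.66 in ligated H/R.

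The neutrophil list stood at 4.49 ± 0.47 (SD, n = 5) in control sham, 5.08 ± 0.68 (n = 6) in control H/R, 4.59 ± 0.13 (n = 5) in ligated sham, 5.53 ± 0.67 (n = 6) in ligated H/R, 5.16 ± 0.59 (n = 5) in simvastatin sham and 4.82 ± 0.31 (n = 8) in simvastatin H/R. The Kupffer cell and macrophage list stood at 7.25 ± 0.34, 7.43 ± 0.20, 8.00 ± 0.24, 8.39 ± 0.42, 8.50 ± 0.33 and 8.18 ± 0.30 in the same order. These are levels without a test.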
